A study of Arabidopsis thaliana with 11 samples.

Results

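The 73 genes described here were higher in sorted cortex cells than in sorted pericycle cells of the Arabidopsis root, both in seedlings grown without salt and in seedlings grown with it, and the annotation tables used here name them only by a locus code. A locus code is AT, a chromosome digit, G and 5 digits. Members were chosen from the deposited log2 values: a probe set had to name exactly 1 such gene, and its plain group mean had to be at least 2 log2 units (4-fold) higher in cortex than in pericycle samples among the control arrays and again among the salt arrays. They are 73 of the 11933 probe sets that name a single locus-only gene (0.612%), and 73 of all 22746 probe sets. Because the difference between the cell types in both conditions chose the members, it is described below without a test. The change with salt inside a cell type was not itself a criterion, and it was tested. It comes from the same group means, however. A gene that had a cortex excess only without salt, or only with it, could not be a member. The choice therefore limits which salt changes members can show, and their shares are not like for like with all probe sets.

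RNA came from protoplasts of 7-day-old seedlings released by a 30 min wall digestion and collected by fluorescence-activated sorting. Cortex cells were sorted from line J1551 and pericycle cells from line J2731, so each cell type rests on 1 marker line, and cell type and line cannot be told apart. There were 3 arrays of cortex control, 3 of cortex salt, 2 of pericycle control and 3 of pericycle salt samples, each from the seedlings of a separate tank. Control seedlings had 7 days without salt, and salt-treated seedlings had 5 days without salt and then 2 days with it. NaCl was at 25 mM on day 6 and 50 mM on day 7, and CaCl2 was added at 0.22 mM and then 0.375 mM. In bulk RNA of sorted cells, fewer cells of a type and less RNA per cell cannot be told apart.

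The cortex is the ground tissue between the epidermis and the endodermis, and in Arabidopsis it stores solutes in large vacuoles and passes water and ions inward from the root surface. The pericycle lies just inside the endodermis, at the rim of the central cylinder, and lateral roots are founded in it. Sodium that enters the root crosses the cortex before it reaches the pericycle and the xylem, which is why the layers are compared under salt. The tables used here pair the members with no product name, so no function is given for any of them. The same thresholds were met by 23 of the 1580 probe sets of genes that have a symbol (1.46%), and the 5 of these with the largest differences, picked after their values were seen, were OSM34, an osmotin-like defence gene, SWEET2, a vacuolar sugar carrier gene, PPDK, which encodes pyruvate orthophosphate dikinase, and the serine carboxypeptidase-like genes scpl25 and scpl28.

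The identity of the sorted cells was checked against marker genes. A gene counts as measured here only where the annotation used names it for a probe set. That annotation gives no gene for 8730 of the 22746 probe sets, so a marker that was not measured may still be on the array. Of 6 listed cortex markers 4 were measured, and their mean log2 level was 2.48 to 2.68 on the cortex control arrays, 2.49 to 2.78 on cortex salt, 2.86 to 3.26 on pericycle control and 2.94 to 3.00 on pericycle salt arrays. AT1G62500, AT1G62510 and AT3G21670 read between 1.75 and 2.38 in every group mean, below the level of 2.81 under which probe sets are called dim here (the 40th percentile of all probe sets). The only measured cortex marker above that level, AT1G09750, ran against the label, with group means of 5.05 and 4.41 in cortex control and salt and of 5.87 and 5.45 in pericycle control and salt samples. The measured cortex markers thus do not show the cortex identity of the J1551 samples, and "cortex" below means the sort from that line. LBD16, a transcription factor gene of lateral root founder cells in the pericycle, was the only measured marker of 4 for the stele and pericycle and had group means of 6.14 and 6.44 in pericycle against 2.26 and 2.06 in cortex samples, in the order control and salt. Root hair markers, of which 5 of 12 were measured, had mean levels of 5.18 to 5.41 on cortex control and 4.23 to 4.59 on pericycle control arrays, and of 3.16 to 3.90 and 2.62 to 4.17 on the salt arrays of the same cell types. OPS, the only measured phloem marker of 3, had group means of 4.31, 4.26, 5.98 and 7.08 in cortex control, cortex salt, pericycle control and pericycle salt samples. Of the listed markers of the endodermis, the xylem and the non-hair epidermis 0 were measured, and the part of other cells in the results below was not tested.

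Arrays of a cortex group correlated with each other at 0.987 to 0.994 over all probe sets, the 2 pericycle control arrays at 0.947 and the pericycle salt arrays at 0.917 to 0.966. Pericycle salt replicate 1 stood apart, with correlations of 0.917 and 0.919 and a limma array weight of 0.171, where the other arrays had weights of 0.436 to 2.98. Its GAPDH and ubiquitin 3' minus 5' differences, signs of RNA quality read from the newer control probe sets, were 1.00 and 2.92, against 0.28 to 0.87 and 2.34 to 2.73 on the other arrays. The older control probe sets did not set it apart, with differences of 1.33 for GAPDH and 2.47 for ubiquitin, inside the 1.01 to 1.49 and 2.34 to 2.83 of the other arrays. The median level of the 73 members was 3.65 on this array and 4.68 and 4.95 on the other pericycle salt arrays. On it 54 of 73 members had the lowest value of the group, beside 33.2% of all probe sets. The rule used these values and favours probe sets that read low on a pericycle array, so nothing is read from this excess. The medians of all probe sets on the 3 pericycle salt arrays were 3.43, 3.54 and 3.58.

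In the mirror direction, 137 locus-only probe sets (1.15%) were at least 2 log2 units higher in pericycle than in cortex samples in both conditions, and over probe sets of any annotation 209 (0.919%) met the thresholds of the members.

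Cortex samples exceeded pericycle samples by a median of 2.70 log2 units (6.51-fold) over the 73 members without salt, with a range of 2.01 to 4.13. With salt the median was 2.92 (7.57-fold) and the range 2.01 to 4.71. Without pericycle salt replicate 1 the salt median was 2.52 with a range of 1.60 to 4.54, and 56 members kept a salt difference of at least 2 while 17 fell under it. Every cortex array lay above every pericycle array of the same condition in all 73 members, an order that 22.4% of all probe sets showed among control arrays and 19.1% among salt arrays; the rule used these values, so nothing is read from the count. Across both conditions, all 6 cortex arrays lay above all 5 pericycle arrays in 70 members, an order that 7.84% of all probe sets showed. The exceptions were AT5G02180, AT4G37850 and AT1G48580. The rule used these values too, so nothing is read from this count either.

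**Figure D1:**
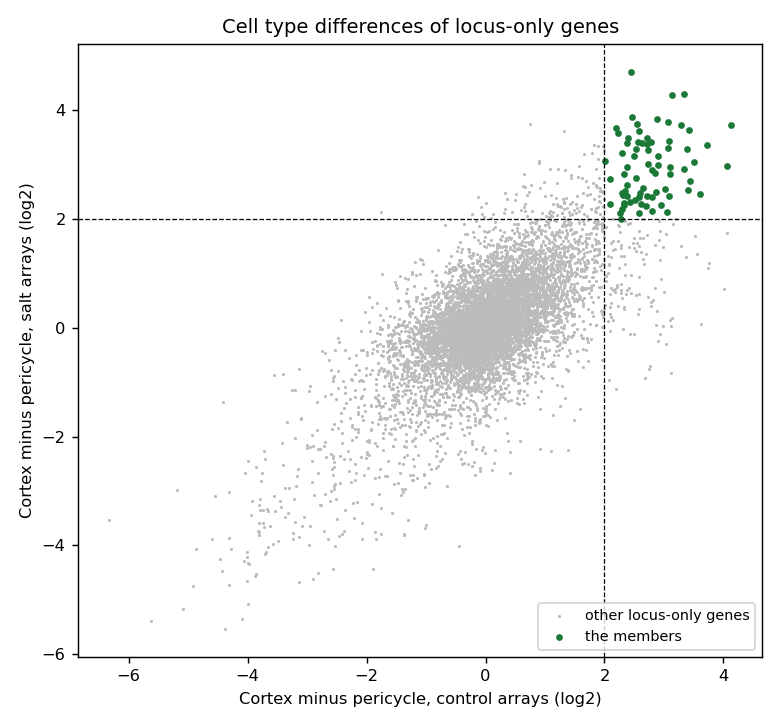
Cortex minus pericycle differences of group means (log2) of the 11933 locus-only probe sets, control arrays on the horizontal axis and salt arrays on the vertical axis. Dashed lines mark the threshold of 2 on each axis; the 73 members (green) fill the upper right corner, up to 4.13 without salt and 4.71 with salt.

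The members spread most in the pericycle. The median SD of a member was 0.437 among the 2 pericycle control arrays and 0.718 among the 3 pericycle salt arrays, beside 0.279 and 0.126 among the 3 control and 3 salt arrays of cortex. The median SD of all probe sets was 0.25 and 0.365 in pericycle control and salt, and 0.181 and 0.139 in cortex control and salt. The median level of the members was 7.05 to 7.34 on the cortex control arrays, 7.36 to 7.57 on cortex salt, 4.42 to 4.50 on pericycle control and 3.65 to 4.95 on pericycle salt arrays. No member had a cortex group mean under the dim level of 2.81. In the pericycle, 9 members did so without salt and 6 with salt, and for these the difference between the cell types can be understated. The mean over all 5 pericycle arrays was under the dim level for AT1G66860 (2.24), AT1G29240 (2.59), AT1G61390 (2.17) and AT1G77890 (2.46).

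**Figure D2:**
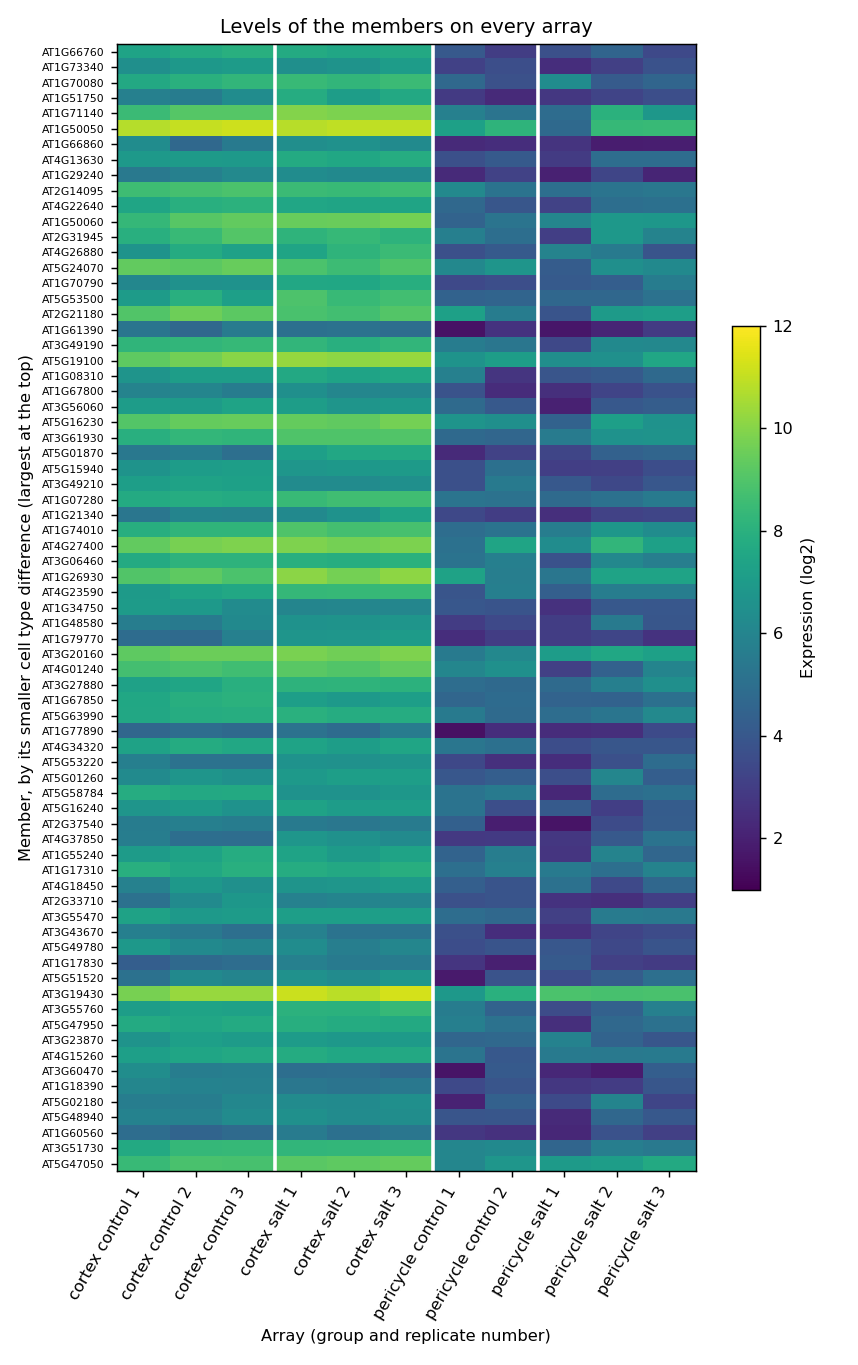
Expression (log2, colour) of each of the 73 members (rows, ordered by the smaller of their 2 cell type differences) on each of the 11 arrays (columns, parted by group). The 6 cortex columns are lighter than the 5 pericycle columns in nearly every row, and pericycle salt replicate 1 is the darkest of its group in 54 rows.

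AT1G66760 had the largest smaller difference of all members. It read 7.36, 7.71 and 7.95 in cortex control, 7.74, 7.49 and 7.64 in cortex salt, 4.08 and 3.00 in pericycle control and 3.69, 4.54 and 3.44 in pericycle salt samples (replicates in order, log2). Its lowest cortex value lay 2.82 above its highest pericycle value, the widest such gap among the members, and the difference between the cell types was 4.13 (17.6-fold) without and 3.73 (13.3-fold) with salt. The control and salt arrays overlapped in both cell types, and the salt changes were -0.05 ± 0.335 (limma SE) in cortex and 0.35 ± 0.375 in pericycle.

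AT1G73340 read 6.49, 6.88 and 7.03 in cortex control, 6.46, 6.67 and 7.08 in cortex salt, 3.11 and 3.66 in pericycle control and 2.42, 3.10 and 3.79 in pericycle salt samples. The cell types were again far apart, by 3.42 (10.7-fold) without and 3.64 (12.4-fold) with salt, and the arrays of both conditions overlapped within each cell type. AT1G70080 read 7.63, 7.97 and 8.22, then 8.42, 8.25 and 8.48 in cortex and 4.73 and 3.71, then 6.33, 4.16 and 4.57 in pericycle samples, control before salt. Here pericycle salt replicate 1 was the highest of its group, and without it the salt difference of 3.37 was 4.02.

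AT1G51750 read 5.77, 5.63 and 6.37 in cortex control and 7.82, 7.14 and 7.64 in cortex salt samples, and 2.87 and 2.29, then 2.80, 3.25 and 3.65 in pericycle control and salt samples. All cortex salt arrays lay above all cortex control arrays, so the difference between the cell types was 3.34 without and 4.30 with salt. This is the only member that RefSeq lists as a pseudogene and the only one whose probe set carries the suffix s_at, which the array maker gives to probe sets that match several transcripts, and whether another transcript adds to its signal was not tested. AT1G71140 read 8.48, 9.12 and 9.08, then 9.96, 9.81 and 9.85 in cortex and 5.77 and 5.23, then 4.91, 8.01 and 6.82 in pericycle samples. Its pericycle salt arrays spanned more than 3 log2 units (SD 1.56), and without replicate 1 the salt difference was 2.46 in place of 3.29.

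AT1G50050 had the brightest cortex signal of the members, 10.78, 11.03 and 11.18 in control and 10.82, 10.94 and 10.95 in salt samples. Its pericycle values were 7.26 and 8.16 without salt and 4.78, 8.36 and 8.40 with salt, so a single array made the group SD of 2.08. Without that array, pericycle salt replicate 1, the salt difference was 2.52 in place of 3.72. The brightness of different probe sets does not order their transcripts, so levels are compared here only within a gene. The other members named for a bright cortex signal were AT3G19430 and AT3G20160, described below, AT5G19100 and AT4G27400. AT5G19100 had group means of 9.66 ± 0.402 (SD, n = 3) and 10.24 ± 0.0773 (n = 3) in cortex control and salt, and 6.88 ± 0.323 (n = 2) and 6.82 ± 0.595 (n = 3) in pericycle control and salt samples. AT4G27400 read 5.10 and 7.41 in pericycle control and 6.36, 8.22 and 7.27 in pericycle salt samples, beside 9.36 to 9.88 on its 6 cortex arrays. Its 2 pericycle control arrays lay far apart (SD 1.64), so its control difference of 3.40 is loosely set.

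The other 4 of the 10 members with the largest differences were AT1G66860, AT4G13630, AT1G29240 and AT2G14095. AT1G66860 had group means of 5.51 ± 0.818 (SD, n = 3) and 6.43 ± 0.137 (n = 3) in cortex control and salt, and of 2.37 ± 0.105 (n = 2) and 2.15 ± 0.45 (n = 3) in pericycle control and salt samples; both pericycle means are dim. AT4G13630 had means of 6.98 ± 0.0119 and 7.69 ± 0.125 in cortex and 3.90 ± 0.286 and 4.26 ± 1.16 in pericycle samples. Its 3 cortex salt arrays lay above the 3 cortex control arrays, and without pericycle salt replicate 1 its salt difference was 2.76 in place of 3.43. AT1G29240 had means of 5.82 ± 0.367 and 6.28 ± 0.0775 in cortex and 2.74 ± 0.601 and 2.49 ± 0.718 in pericycle samples. AT2G14095 had means of 8.75 ± 0.152 and 8.50 ± 0.0736 in cortex and 5.69 ± 0.67 and 5.20 ± 0.21 in pericycle samples. In all 4 the lowest cortex array was at least 2.02 above the highest pericycle array.

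**Figure D3:**
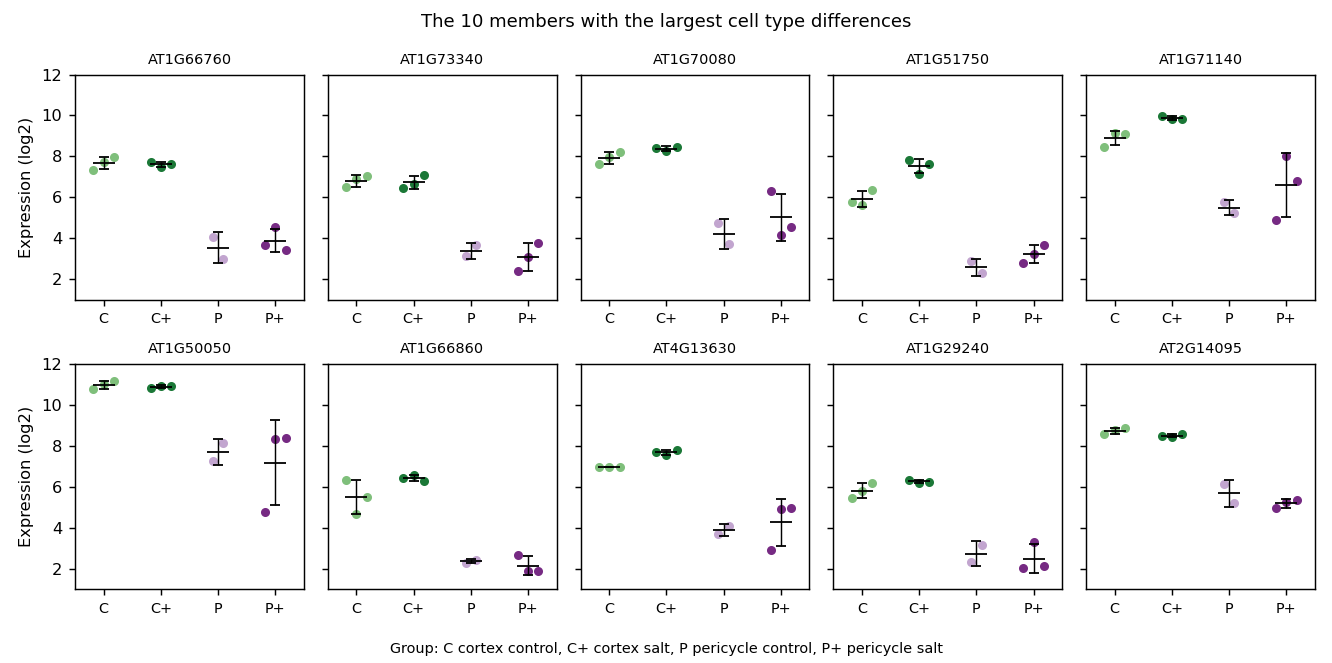
Expression (log2) of the 10 members with the largest smaller difference on each array (points), with group mean and SD (bars; n = 3, or 2 in pericycle control). Cortex points lie above pericycle points in all 10 panels, and replicate 1 is the lowest point of the wide pericycle salt bars of AT1G50050 (SD 2.08) and AT1G71140 (SD 1.56).

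At the edge of the rule, the members with the smallest values were AT5G47050 (differences of 2.27 without and 2.01 with salt), AT3G51730 (2.01 and 3.06) and AT1G60560 (2.09 and 2.28). Just outside it were AT2G44370 (3.20 and 2.00, the second just short of the threshold before rounding), AT3G53400 (1.99 and 3.26) and AT4G32250 (2.14 and 1.99). A further 119 locus-only probe sets reached 2 in the control arrays only and 125 in the salt arrays only. Of the members, 37 had a smaller difference under 2.5 and 11 had one of at least 3.

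The cell type difference was larger with salt in 41 members and smaller in 32, with a median change of 0.13. This direction rests on 1 array: without pericycle salt replicate 1, a setting chosen after seeing the data, the difference was larger with salt in 27 members and smaller in 46, with a median change of -0.22. With all arrays it grew by at least 1 log2 unit in 10 members, among them AT4G01240 (2.26), AT5G47950 (1.47), AT1G79770 (1.41) and AT3G55760 (1.34), and shrank by at least 1 in AT3G20160 (-1.16) and AT1G50060 (-1.10). Without that array it grew by at least 1 in 4 members, AT4G01240 (1.56), AT1G79770 (1.42), AT1G66860 (1.40) and AT5G16240 (1.19), and shrank by at least 1 in 9, AT3G20160 (-1.26) and AT1G50060 (-1.36) among them. AT5G47950 and AT3G55760 were then at 0.67 and 0.82. AT4G01240 read 8.71, 8.86 and 8.64 in cortex control, 9.19, 9.01 and 9.37 in cortex salt, 6.05 and 6.53 in pericycle control and 3.08, 4.42 and 5.95 in pericycle salt samples, which gave it the widest salt difference of all members, 4.71 (26.1-fold), or 4.00 without pericycle salt replicate 1. It was singled out after its values were seen.

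The first tested comparison asked how salt changed the members inside cortex cells. Of the 73 members, 5 rose and none fell: AT5G01870 by 2.13, AT1G79770 by 1.69, AT1G51750 by 1.61, AT5G53500 by 1.29 and AT1G07280 by 0.79 log2 units. The 5 make up 6.85% of the members, where 1.43% of all probe sets rose and 2.73% fell (limma, Benjamini-Hochberg adjusted p under 0.05 over all probe sets); among probe sets with a cortex mean at or above the dim level, as all members have, 2.34% rose and 4.43% fell, 6.77% in all. Over all probe sets the 2 directions came to 4.16%. Members had to have a cortex excess in both conditions, which leaves less room for large falls and also for large rises in cortex. The counts of rises and of falls are thus partly set by the choice. At an unadjusted p under 0.05, 15 members were higher and 2 lower, 17 of 73 together, and 14.8% of all probe sets were at that level. The median change of the members was 0.39, beside 0.01 over all probe sets and 0.08 over those at or above the dim level, and 48 members were higher with salt and 25 lower.

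All 3 cortex salt arrays lay above all 3 control arrays in 35 members (47.9%), and below them in 9 (12.3%). Over all probe sets these shares were 19.3% and 14.8%, and over those at or above the dim level 28.9% and 19.5%. The 9 members with lower salt arrays were AT2G14095, AT5G24070, AT3G49210, AT1G34750, AT1G67850, AT5G58784, AT2G37540, AT3G60470 and AT1G18390. Their changes were -0.19 to -1.03, and none passed in the fit to all 11 arrays, which pools the spread of both cell types. With only the cortex arrays fitted, 7 of the 73 members passed as lower, in a fit that called 19.7% of all probe sets. Root hair markers, of which 5 of 12 were measured, were lower on the cortex salt arrays (3.16 to 3.90) than on the cortex control arrays (5.18 to 5.41). Whether root hair cells in the sort bear on the members was not tested.

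AT5G01870 showed the largest response. Its cortex values were 5.42, 5.64 and 5.00 without salt and 7.21, 7.61 and 7.63 with salt, 2 separate sets more than 1.5 log2 units apart. The change was 2.13 ± 0.354 (4.38-fold, limma adjusted p = 8.67e-03). In pericycle samples the gene read 2.30 and 3.15 without and 3.29, 4.41 and 4.57 with salt, a change of 1.36 ± 0.396 that did not pass (adjusted p = 0.12). Cortex salt arrays of this gene thus stood above everything measured in the pericycle, and even the control arrays did, by 0.43.

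AT1G79770 read 4.88, 4.81 and 5.78 in cortex control and 6.74, 6.76 and 7.05 in cortex salt samples, a rise of 1.69 ± 0.293 (3.23-fold, adjusted p = 0.0106). Its pericycle values, 2.42 and 2.99 without and 3.01, 3.32 and 2.62 with salt, overlapped. AT1G51750, whose values are given above, rose by 1.61 ± 0.297 (3.05-fold, adjusted p = 0.0148), and in the pericycle its change was 0.66 ± 0.332 (adjusted p = 0.382). AT5G53500 read 7.05, 7.93 and 7.22 in cortex control and 8.94, 8.43 and 8.68 in cortex salt samples, a rise of 1.29 ± 0.25 (2.44-fold, adjusted p = 0.0192). In the pericycle it read 4.47 and 4.55 without and 4.69, 4.68 and 5.16 with salt; the salt arrays lay just above the controls, and the change of 0.33 ± 0.28 did not pass (adjusted p = 0.644).

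AT1G07280 had the smallest of the 5 rises and the tightest arrays: 7.74, 7.83 and 7.71 without and 8.41, 8.62 and 8.62 with salt, a change of 0.79 ± 0.186 (1.73-fold, adjusted p = 0.0447). Its pericycle values of 5.24 and 5.15 without and 4.79, 5.09 and 5.50 with salt overlapped. Members that moved by at least 1 log2 unit in cortex without passing were AT1G70790 (1.26, adjusted p = 0.0881), AT4G37850 (1.33), AT5G53220 (1.28), AT4G23590 (1.06), AT5G58784 (-1.03) and AT3G60470 (-1.02).

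The count of 5 depends on single arrays and on the spread used. Without cortex salt replicate 3 none of the 5 passed (adjusted p = 0.0521 for AT5G01870, the only one of them that passed without each of the other arrays), and with only the cortex arrays fitted 31 members passed, 24 of them higher and 7 lower with salt. The same fits called 1.59% of all probe sets without cortex salt replicate 3 and 19.7% with the cortex arrays alone.

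**Figure D4:**
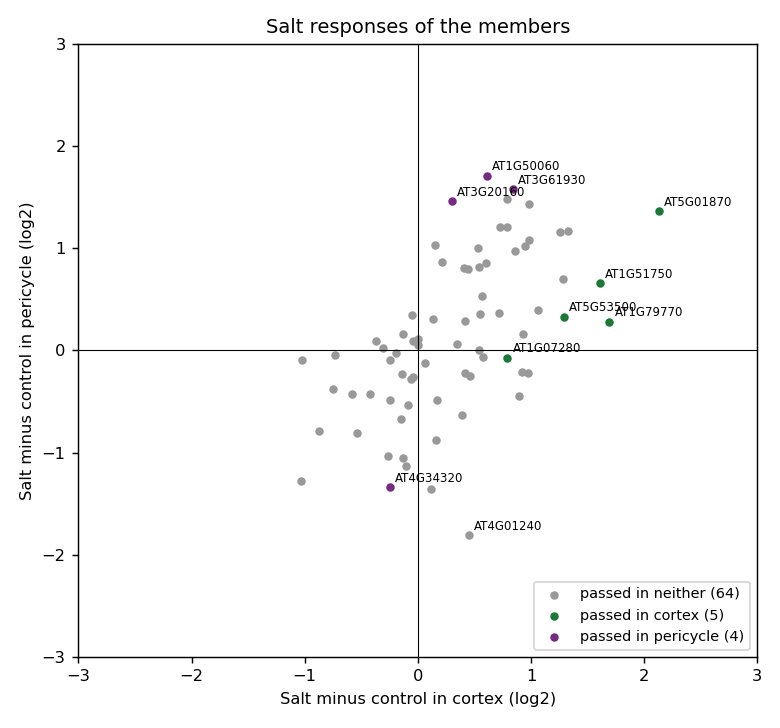
Salt minus control (log2) of each member in cortex (horizontal axis) and in pericycle cells (vertical axis). The 5 members that passed in cortex (green) lie between 0.79 and 2.13 on the horizontal axis, the 4 that passed in pericycle (purple) lie near the top (3) or bottom (1), no member passed in both, and AT4G01240 lies lowest at -1.81.

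The second comparison asked the same of pericycle cells. AT1G50060 rose by 1.71, AT3G61930 by 1.58 and AT3G20160 by 1.46 log2 units, and AT4G34320 fell by 1.34. These 4 are 5.48% of the members, beside 1.99% of all probe sets, of which 1.04% rose and 0.95% fell. Among probe sets at or above the dim level in cortex 2.72% passed, 1.59% higher and 1.14% lower. A cortex excess in both conditions also leaves less room for large changes in the pericycle, higher or lower. At an unadjusted p under 0.05 there were 17 members, 11 of them higher with salt, and 16% of all probe sets were at that level. The median change of the members was 0.06, beside 0.00 over all probe sets, with 40 members higher and 33 lower with salt. All pericycle salt arrays lay above both control arrays in 11 members (15.1%) and below both in 7 (9.59%). These shares were 10.2% and 10.8% over all probe sets, and 12.7% and 11.2% over those at or above the dim level in cortex.

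AT1G50060 read 4.50 and 5.25 in pericycle control and 6.05, 6.87 and 6.82 in pericycle salt samples, a rise of 1.71 ± 0.358 (3.26-fold, limma adjusted p = 0.0437). In cortex it read 8.34, 9.14 and 9.34 without and 9.45, 9.49 and 9.72 with salt; the salt arrays lay above the controls, by a mean of 0.61 ± 0.32 that did not pass. AT3G61930 read 4.76 and 4.64 without and 5.58, 6.59 and 6.67 with salt in the pericycle, a rise of 1.58 ± 0.292 (2.99-fold, adjusted p = 0.0292). Its cortex arrays also parted, at 7.96, 8.28 and 8.20 without and 8.95, 8.98 and 9.03 with salt, a change of 0.84 ± 0.261 that did not pass (adjusted p = 0.127).

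AT3G20160 read 5.52 and 6.15 in pericycle control and 7.08, 7.56 and 7.25 in pericycle salt samples, a rise of 1.46 ± 0.228 (2.75-fold, adjusted p = 0.0167). Its cortex values moved little, from 9.26, 9.52 and 9.54 to 9.78, 9.60 and 9.86, a change of 0.30 ± 0.204. AT4G34320 read 5.31 and 5.04 without and 3.59, 3.95 and 3.96 with salt in the pericycle, a fall of 1.34 ± 0.209 (2.53-fold, adjusted p = 0.0167). Its cortex values overlapped, at 7.32, 7.77 and 7.60 without and 7.37, 7.11 and 7.47 with salt.

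Several pericycle changes were as large without passing. AT4G01240 changed by -1.81 ± 0.616 (adjusted p = 0.182), AT5G51520 by 1.48 ± 0.585 (adjusted p = 0.246), AT3G19430 by 1.43 ± 0.312 (adjusted p = 0.0502) and AT5G47950 by -1.36 ± 0.605 (adjusted p = 0.31). AT3G19430 read 6.86 and 7.97 in pericycle control and 8.89, 8.79 and 8.86 in pericycle salt samples, and 9.73, 10.32 and 10.30, then 11.14, 10.86 and 11.27 in cortex control and salt samples, so its salt arrays were the higher ones in both cell types.

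The pericycle calls depend on pooling the spread of all groups. When the 5 pericycle arrays were fitted alone, limma called 0 members, with 8 at an unadjusted p under 0.05, and 0.0% of all probe sets. AT1G50060 lost its call in 11 of 20 alternatives, among them the fits without pericycle salt replicate 2 and without replicate 3, and AT3G61930 in 10 of 20, among them the fit without pericycle salt replicate 2. Without pericycle salt replicate 1 all 4 passed, among 10 members called, where 4.29% of all probe sets were called, and the members' median change was 0.45 with 55 members higher with salt; without pericycle salt replicate 3 that median was -0.16, so its sign rests on single arrays.

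**Figure D5:**
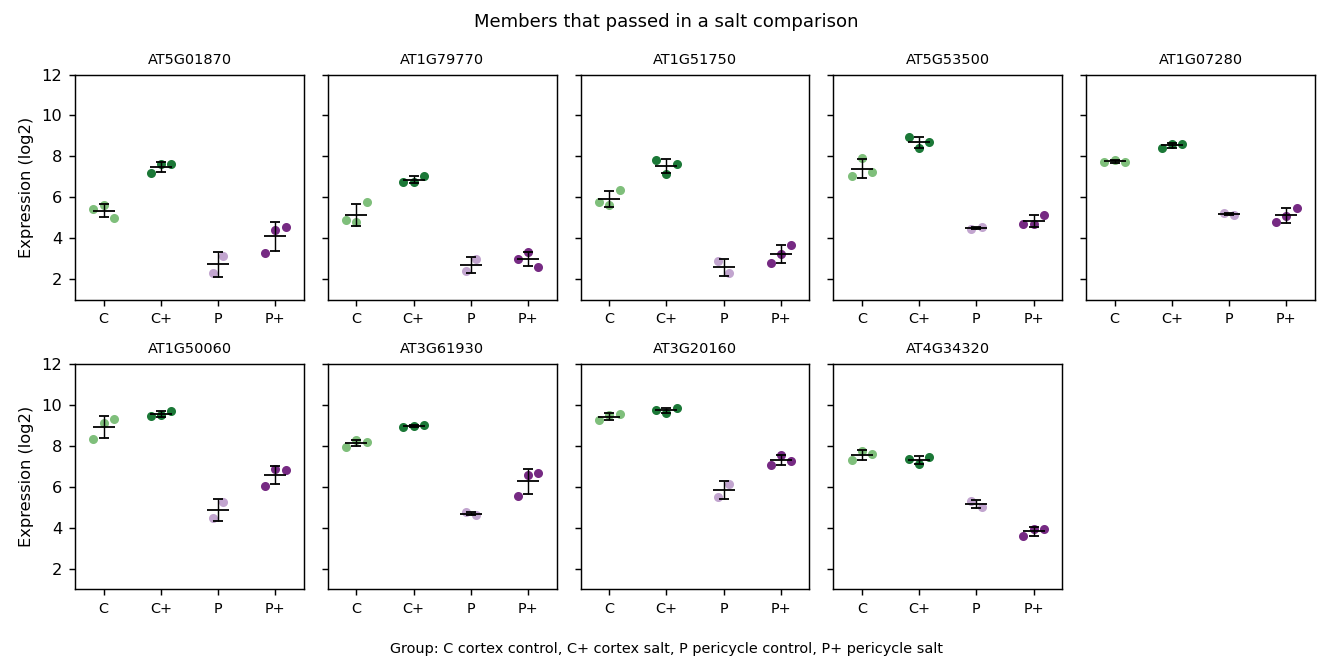
Expression (log2) on each array (points) of the 9 members that passed in a salt comparison, with group mean and SD (bars; n = 3, or 2 in pericycle control). The first 5 panels passed in cortex, where the salt points lie above the control points, and the last 4 in pericycle, where AT1G50060, AT3G61930 and AT3G20160 are higher and AT4G34320 is lower with salt.

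Set side by side, 35 members were higher with salt in both cell types, 20 lower in both, 13 higher in cortex and lower in pericycle and 5 the reverse. No member passed in both comparisons and 64 passed in neither. Over all probe sets 4.16% passed in cortex and 1.99% in pericycle, so few of any kind could pass in both. The same side by side counts over all probe sets were not worked out, and nothing is read from those of the members. Whether a response differed between the cell types was not tested, because that difference is the change of the very differences the rule used.

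The members were looked at for what the rule did not ask. All 73 matched RefSeq annotation of assembly TAIR10.1 by gene identifier, 72 as protein-coding genes, and 36 have a single RefSeq transcript. Their median gene length was 2350 bp, from 744 to 4644 bp, beside 2090 bp over all locus-only probe sets. Chromosome 1 holds 27 of them (37%, beside 25.9% of locus-only probe sets), chromosome 2 holds 5 (6.85%, beside 16.4%), chromosome 3 holds 14, chromosome 4 holds 10 and chromosome 5 holds 17.

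In the order of protein-coding genes along the chromosomes, 4 pairs of members lay within 10 genes of each other. AT1G50050 and AT1G50060 are direct neighbours, as are AT5G16230 and AT5G16240, a single gene lies between AT3G49190 and AT3G49210, and AT1G67800 and AT1G67850 are 5 steps apart. In the pericycle, the salt change of AT1G50050 was -0.53 ± 0.884, or 0.67 without pericycle salt replicate 1, and did not pass. Its neighbour AT1G50060 rose by 1.71, a call that was lost in 11 of 20 alternatives. AT5G16230 and AT5G16240 had cell type differences of 2.71 and 2.37 without and 3.38 and 3.39 with salt. AT3G49190 and AT3G49210 had 2.80 and 2.66 without and 2.90 and 2.57 with salt. Neighbours can be copies of each other and share signal on an array, which was not tested here. Of the genes next to a member in the order of all annotated genes, 144 are not members themselves. The annotation used ties a probe set to 49 of these. Of the 49, 2 (4.08%) had a smaller difference of at least 1, beside 4.37% of all probe sets naming a single gene.

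For 3 members another probe set names the same gene and allows a check on the first. The other probe set of AT1G18390 had group means of 5.45, 4.84, 3.76 and 3.12 in cortex control, cortex salt, pericycle control and pericycle salt samples, beside 5.92, 5.34, 3.66 and 3.23 on the member, so both were higher in cortex. That of AT1G77890 read 2.83, 3.04, 2.22 and 2.36, near or under the dim level, with the cortex means the higher ones. That of AT5G49780 read 1.37, 1.23, 1.37 and 1.33, while the member had 6.34, 6.03, 3.72 and 3.75: the 2 probe sets disagree, and the cortex difference of this gene rests on 1 of them.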

How the data were processed

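The authors deposited log2 expression values of 22810 probe sets on 11 Affymetrix arrays; per the submitters' processing notes RMA and limma were used, and the sources used here give neither their roles nor versions, nor a genome build. That the values are log2 was inferred from their range. The 64 control probe sets were left out. Genes came from GEO's platform annotation, with symbols updated through RefSeq TAIR10.1 by gene identifier (13436 of 13513 single-gene probe sets matched). No coordinates are printed. Arrays give no read depth, and with 2 or 3 arrays per group precision is limited by that number.

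One limma model (version 3.58.1, R 4.3.3) with a mean per group covered the 11 arrays (eBayes, 7 residual and 2.96 prior degrees of freedom), and salt minus control was tested in each cell type, two-sided, with Benjamini-Hochberg adjustment over 22746 probe sets. Errors are limma standard errors or SDs. The fit was tested on simulated data with the same spread in all groups, so unequal spreads between groups were not tested. The members and lists were chosen with earlier results of these data known. Named members are the 10 with the largest smaller difference, all that passed, 3 at the threshold and the 5 with the brightest cortex signal (AT1G50050, AT3G19430, AT5G19100, AT4G27400 and AT3G20160), besides those said to be picked later. Planned groupings by product name, promoter motifs and protein comparison were not run, as no product names or sequences were used here. Alternatives were other spreads, weights, normalizations, filters, a block and leaving out each array.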

Additional observations from a re-analysis of the deposited data

Results flagged for a closer look

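AT4G01240 drew attention because its 3 cortex salt arrays (9.01 to 9.37) lay above all cortex control arrays (8.64 to 8.86) while its 3 pericycle salt arrays (3.08 to 5.95) lay below both pericycle control arrays (6.05 and 6.53). The salt responses were 0.45 in cortex and -1.81 in pericycle and differ by 2.26, which was not tested; without pericycle salt replicate 1 they differ by 1.56. Neither response passed on its own in limma (adjusted p = 0.883 and 0.182; over the alternatives the adjusted p ran from 0.0453 to 1.00 and from 0.0106 to 0.796).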

How the results depend on the processing

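Under quantile normalization, centring on array medians, group medians, the probe table's own symbols or leaving out any 1 array, the rule found 62 to 92 members, and 206 at a threshold of 1.5 and 36 at 2.5. These were not always the same genes. Without pericycle control replicate 1 or 2 the rule found 84 each time, and 64 and 63 of them were among the 73. Without pericycle salt replicate 1 it found 62, and 56 of them were among the 73. The count of members that changed with salt in cortex (5) was 31 with only the cortex arrays fitted, 29 with array weights, 3 with the replicate block and 0 to 14 without any 1 array (14 without pericycle salt replicate 1; 0, with 13 at an unadjusted p under 0.05, without cortex salt replicate 3). In pericycle (4) it was 0 with only the pericycle arrays fitted, 1 with array weights and 2 to 10 without any 1 array; a fit without a pericycle control array leaves 1 there and assumes that it varies like the rest. AT3G20160 and AT4G34320 lost their calls only with the pericycle arrays alone or array weights. Same-numbered arrays had residual correlations of -0.151 to 0.107, which show no sign of pairing. Arrays of unlike number were not compared, and with 2 or 3 arrays per group the check cannot exclude pairing. With the replicate block 3 members passed in pericycle as well, and AT5G53500, AT1G07280 and AT3G61930 lost their calls. The members' median change was 0.28 to 0.44 in cortex and -0.16 to 0.45 in pericycle over the fits run. The cause of these shifts was not tested. Shares of all probe sets called were worked out only for the fits given with a share above. The other counts of members called are not read as results about the members. No alternative reversed a called change of a named member.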
